A study of Rattus norvegicus with 28 samples.

Results

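The genes described here had far lower RNA counts in the brains of BN-Lx rats than in those of SHR rats, and some were nearly absent in BN-Lx. They were chosen by their levels in the 24 female libraries. A gene was taken if its mean was at least 1 CPM in the 12 SHR females (counts per 1000000 counts of all genes in a library), if its mean in the 12 BN-Lx females was at least 8-fold lower, and if its listed length was over 200 bases. Of 32623 genes, 22 met the rule, and the 2 males of each strain were kept out of it as a check. Another 6 rows met the limits on level but were 200 bases or shorter and are not members.

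The series holds 28 libraries of total RNA from whole brain, 14 from rats of strain BN-Lx/Cub and 14 from SHR/OlaIpcv, both of them inbred. Each strain had 4 females at pre-estrus, 4 at estrus and 4 at post-estrus, and 2 males. The labels name no treatment and no age. Ribosomal RNA was removed before the stranded libraries were made, and totals ran from 43410562 to 90667238 counts per library. The sample descriptions end in b35 or b37, a suffix whose meaning is not stated, and 7 SHR and 5 BN-Lx females carry b35. Both BN-Lx males and 1 SHR male carry b35 as well. The descriptions also hold a longer number of unstated meaning, which several libraries share. It is the same in all SHR pre-estrus libraries and in both males of a strain, and never the same across strains. This number did not enter the fit. Its part cannot be told apart from that of strain and was not tested for stage. The titles call the libraries biological replicates, so each was treated as 1 animal, although the extraction text in the labels speaks only of male rats. The BN-Lx pre-estrus replicates 7a and 7b share a replicate number but differ in suffix and in the longer number. They were counted as separate animals, which the labels do not settle.

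SHR is the spontaneously hypertensive rat, and BN-Lx is a Brown Norway line that carries the Lx mutation, which affects limb development. The 2 strains are the founders of a panel of recombinant inbred rats used to map traits. Genes in many copies, and processed copies of other genes, often differ in number and sequence between inbred strains. A sequenced fragment that fits several copies equally well has no unique origin. RSEM, the program that made these counts, divides such a fragment among the genes it fits, in proportion to their estimated abundance. A gene that received divided fragments therefore has a count that is not a whole number.

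The deposited tables give Ensembl identifiers without symbols, and 0 identifiers matched the reference table at hand, so nothing can be said of what these genes encode. Identifiers outside the rule for naming genes were singled out after their values were seen. They are named because their values carry a result.

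The members spanned a wide range in SHR females. Mean levels ran from 1.06 to 182 CPM, with 8 members above 10 CPM and 14 from 1 to 10 CPM. Together they held 0.0619% to 0.0923% of the gene counts in the 14 SHR libraries and 0.00101% to 0.0117% in the 14 BN-Lx libraries. Compared per length, ENSRNOG00000026716 was the most abundant, with 119, 180 and 256 TPM (transcripts per 1000000, corrected for length; lowest, median and highest SHR female). ENSRNOG00000033803 followed with a median of 122 TPM and ENSRNOG00000048109 with 118 TPM, and the ranges of these 3 genes overlapped. ENSRNOG00000048060 was the lowest, at a median of 0.485 TPM.

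"Nearly absent" describes some members better than others. The BN-Lx female mean was under 0.1 CPM for 10 members and over 1 CPM for 6. No member lacked counts in all 12 BN-Lx females, and 7 had counts in every one of them. ENSRNOG00000026716 kept a mean of 22.5 CPM in BN-Lx females, where the lowest, median and highest values were 1.04, 14.6 and 110 CPM. The values of the 12 SHR and the 12 BN-Lx females did not overlap for 19 members. All SHR females lay above all BN-Lx females for 1.17% of the 13848 genes of over 200 bases at 1 CPM or more in SHR females, a share given beside a count that the rule itself favours. The overlapping members were ENSRNOG00000007219, ENSRNOG00000040273 and ENSRNOG00000048060. These values chose the members and are given as a description.

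**Figure D1:**
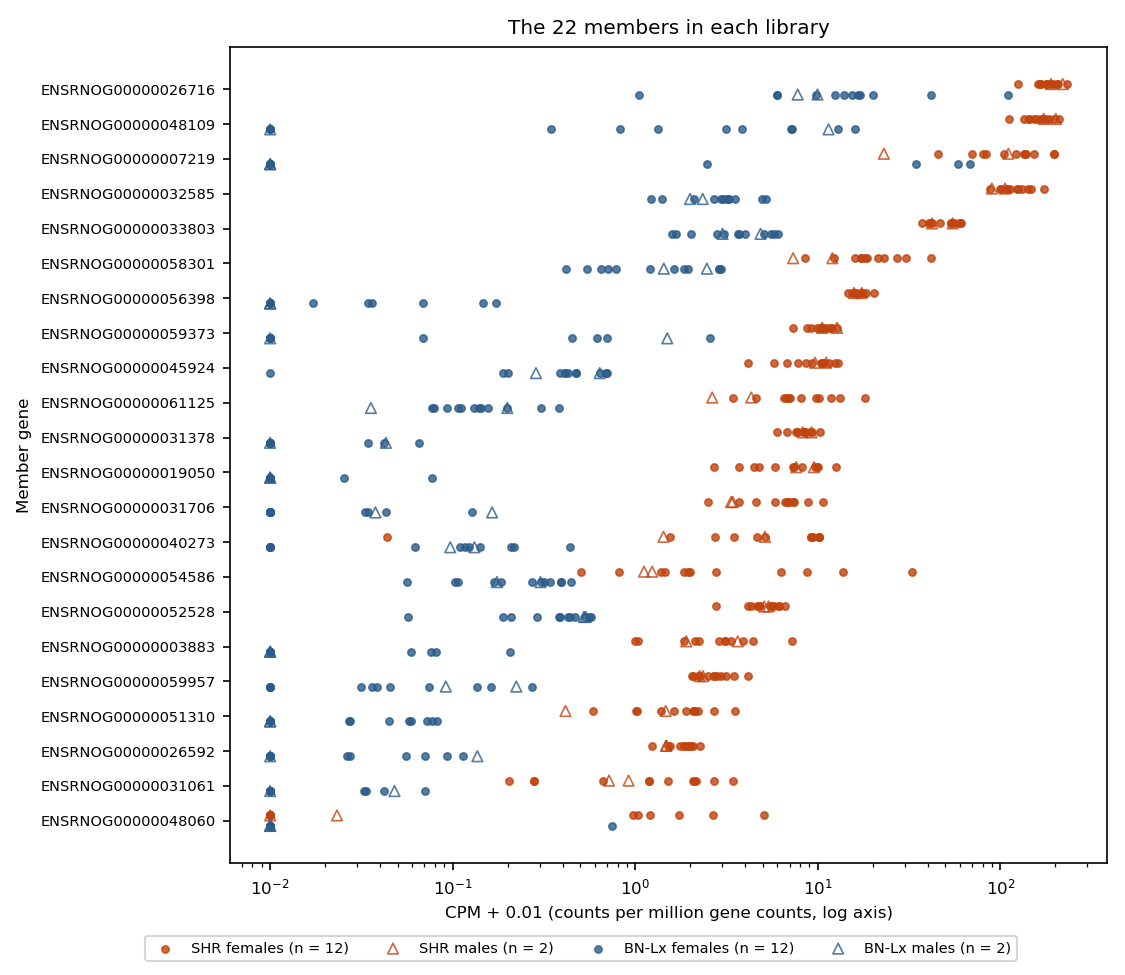
Level of each member in each library, in CPM plus 0.01 on a log axis; filled circles are females (n = 12 per strain) and open triangles males (n = 2 per strain). SHR values (orange) lie to the right of the BN-Lx values (blue) in females for 19 of the 22 members, and points at 0.01 are libraries with no count.

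At the limits of the rule, the members with the smallest female ratios were ENSRNOG00000026716 (8.10-fold) and ENSRNOG00000007219 (8.90-fold). ENSRNOG00000026716 no longer met the rule when any of 10 single libraries was left out, SHR pre-estrus replicate 11 and 9 BN-Lx females. Without BN-Lx post-estrus replicate 5 it stayed a member, and its BN-Lx female mean was 14.5 in place of 22.5 CPM. Without BN-Lx estrus replicate 2 the BN-Lx female mean of ENSRNOG00000007219 was 8.70 in place of 13.7 CPM. Just outside were ENSRNOG00000005869 (7.70-fold, 14.1 CPM in SHR females) and ENSRNOG00000045885 (6.92-fold, 1.57 CPM). Nearest the limit on level were ENSRNOG00000048060 (1.06 CPM) and ENSRNOG00000031061 (1.47 CPM) inside, and ENSRNOG00000032596 (0.884 CPM) and ENSRNOG00000023831 (0.769 CPM) outside. The shortest members were ENSRNOG00000052528 (204 bases) and ENSRNOG00000061125 (280 bases). The longest rows left out for length were ENSRNOG00000057887 (191 bases, 233 CPM in SHR and 18.4 in BN-Lx females) and ENSRNOG00000055352 (164 bases).

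The males, which the rule did not use, showed the same direction for most members. Both SHR males were above both BN-Lx males for 21 of 22 members, against 27.6% of the 18134 genes tested. The rule applied to the males alone held for 17 of 22, against 0.176% of genes. In the test of all genes (edgeR's quasi-likelihood test, adjusted p under 0.05), 11 of 22 members were called higher in SHR males, against 0.331% of genes. The spread in this test was estimated over all 28 libraries, among them the females that chose the members. A fit of the 4 males alone, without the suffix, called 13 of the 21 members tested higher in SHR, against 68 of 16418 genes. In the fit of all 28 libraries, all 22 members passed the filter on low counts, which their SHR levels alone could meet. The median log2 fold change was 4.82 over the members and -0.02 over all genes tested.

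ENSRNOG00000056398 had 15.8 and 17.4 CPM in the SHR males. Neither BN-Lx male had a count of it, which makes the SHR level at least 277-fold higher (edgeR adjusted p = 2.68e-06, n = 2 per strain; the bound uses a floor of 3 counts per library). It was also the steadiest member over the SHR females, at 14.5 CPM in the lowest, 16.1 in the median and 20.2 in the highest. ENSRNOG00000019050 had 7.61 and 9.52 CPM in the SHR males. It too had no count in the BN-Lx males, which makes the SHR level of this row at least 134-fold higher (edgeR adjusted p = 2.8e-05). Each of these SHR values lies far above the BN-Lx values, and the groups do not overlap. Both bounds cover counting error only, and not how RSEM divided reads between genes. Summed with the gene that shares its reads, described below, ENSRNOG00000019050 was 4.83 times as high in SHR as in BN-Lx males. ENSRNOG00000031378 had 8.26 and 9.23 CPM against 0 and 0.0330 CPM. The 2 BN-Lx males held 1.74 expected counts in all, and the ratio of summed levels was 542-fold, with an exact 95% interval of 130 to 3899 for counting error alone (counts rounded). This interval too leaves out how RSEM divided reads, and the counts of this member were not whole in 18 libraries. The fitted log2 fold change was 8.70 (edgeR adjusted p = 2.37e-06). It was 7.70 when BN-Lx male replicate 1 was left out and 11.95 when replicate 2 was. ENSRNOG00000032585 had 89.8 and 106 CPM against 2.33 and 1.99 CPM. Its log2 fold change was 5.54 ± 0.56 (edgeR adjusted p = 3.89e-06). ENSRNOG00000033803 had 54.8 and 42.1 CPM against 3.00 and 4.85 CPM. Its log2 fold change was 3.53 ± 0.47 (edgeR adjusted p = 0.000101). These last 2 genes thus kept a measurable level in BN-Lx males.

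The 6 other called members were ENSRNOG00000045924, ENSRNOG00000061125, ENSRNOG00000031706, ENSRNOG00000052528, ENSRNOG00000003883 and ENSRNOG00000051310, with adjusted p from 0.000448 to 0.00702. Their SHR male values ran from 0.405 CPM to 11.1 CPM and their BN-Lx male values from 0 to 0.629 CPM. For ENSRNOG00000051310, at 1.46 and 0.405 CPM and at 0 in both BN-Lx males, the difference is at least 7.11-fold for counting error alone. Of the 11 calls, 6 held when any of the 4 males was left out. The log2 fold change of ENSRNOG00000061125, 5.19 in all libraries, was 7.40 when BN-Lx male replicate 1 was left out and 4.40 when replicate 2 was. That of ENSRNOG00000031706, 5.19 as well, was 7.27 and 4.42, and that of ENSRNOG00000045924 went from 4.34 to 5.13 with the latter left out. The call of ENSRNOG00000045924 was lost without BN-Lx male replicate 1 (adjusted p = 0.0926) and that of ENSRNOG00000031706 without BN-Lx male replicate 2 (adjusted p = 0.0875). ENSRNOG00000052528 and ENSRNOG00000003883 lost theirs without either BN-Lx male (adjusted p from 0.108 to 0.163), and ENSRNOG00000051310 without any of BN-Lx male replicate 1 (0.164), BN-Lx male replicate 2 (0.128) and SHR male replicate 2 (0.108).

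Among the 11 members not called, the largest levels were those of ENSRNOG00000026716 and ENSRNOG00000048109. ENSRNOG00000026716 had 189 and 220 CPM in SHR males and 9.95 and 7.75 CPM in BN-Lx males. Its log2 fold change was 4.86 ± 1.19 (SE, edgeR adjusted p = 0.0613). It was called in 3 of 12 alternative fits. These were edgeR on the 4 males alone (adjusted p = 0.000371), DESeq2 (adjusted p = 0.000366) and limma (adjusted p = 0.0357). ENSRNOG00000048109 had 173 and 201 CPM against 11.4 and 0 CPM, with a fitted log2 difference of 4.79 ± 1.95 (adjusted p = 0.415). The BN-Lx females of both members scattered widely, while the SHR values stayed within 2-fold of each other. ENSRNOG00000007219 had 23.0 and 110 CPM in the SHR males and none in the BN-Lx males, at least 403-fold higher by the same floor. The SHR males lay far apart, and the member was not called (edgeR adjusted p = 0.462). The lower SHR male carries suffix b35, as both BN-Lx males do, and the higher carries b37. The part of the suffix in this was not tested. That bound too leaves out how RSEM divided reads. Summed with the genes that share its reads, described below, ENSRNOG00000007219 was 1.46 times as high in SHR as in BN-Lx males. ENSRNOG00000026592 had 1.46 and 1.47 CPM against 0.126 and 0 CPM (log2 fold change 4.29 ± 1.04, adjusted p = 0.0511). ENSRNOG00000048060 was the only member whose males overlapped, with 0.0132 and 0 CPM in SHR males, where BN-Lx males had none. The rule also failed in males for ENSRNOG00000058301 and ENSRNOG00000054586, whose male ratios were 4.98 and 5.11, and for ENSRNOG00000051310 and ENSRNOG00000031061, whose SHR male means were under 1 CPM. Of the members not called, ENSRNOG00000026592 and ENSRNOG00000059957 were also called in 3 of the 12 alternative fits. ENSRNOG00000058301 was called in 2, ENSRNOG00000007219 and ENSRNOG00000031061 in 1 each, and the remaining members not called in none.

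**Figure D2:**
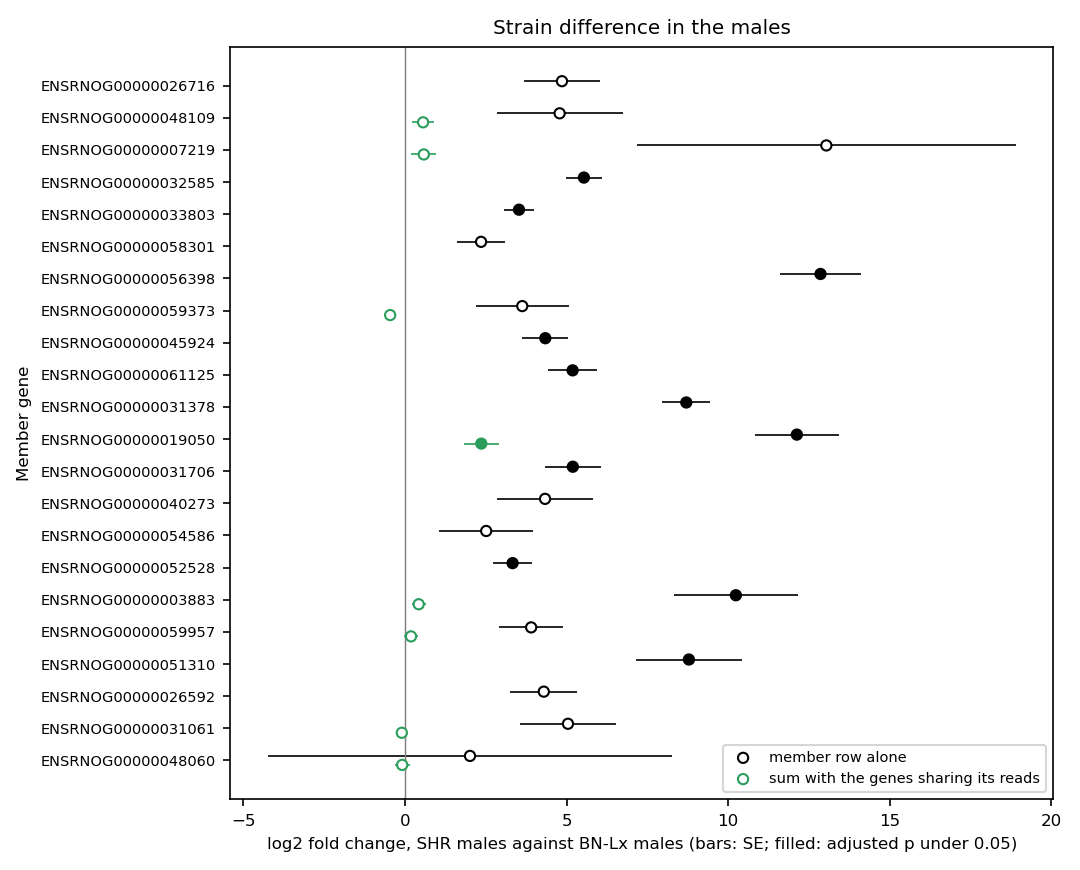
Log2 fold change of SHR against BN-Lx males (n = 2 per strain) for each member (black) and, for 8 members, for its sum with the genes that share its reads (green); bars are SE and filled points have an adjusted p under 0.05. The black points all lie above 0 and 11 are filled, while 7 of the 8 green points lie within 0.6 of 0. Fitted values of members with no count in BN-Lx males depend on few counts and are no bound.

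Most members were short rows with a single listed transcript and with divided reads. Their median length was 796.5 bases, against 2294 bases for the 13848 genes of over 200 bases at 1 CPM or more in SHR females. A single transcript was listed for 20 of the 22 (90.9%), against 69.9% of those genes. Expected counts were not whole numbers in at least 6 of the 12 SHR females for 21 of 22 members (95.5%), against 19.3% of those genes. They were not whole in all 12 for 17 members (77.3%, against 11.6%). Among the 32 genes that meet the same rule with the strains swapped, 19 (59.4%) had divided counts in at least 6 of the 12 BN-Lx females. No set test was made of these shares, and members and comparison genes differ in level. ENSRNOG00000026592, of 973 bases, was the only member with whole counts in every library. Its SHR females had 1.22, 1.87 and 2.24 CPM and its BN-Lx females 0, 0.0082 and 0.104 CPM (lowest, median and highest).

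**Figure D3:**
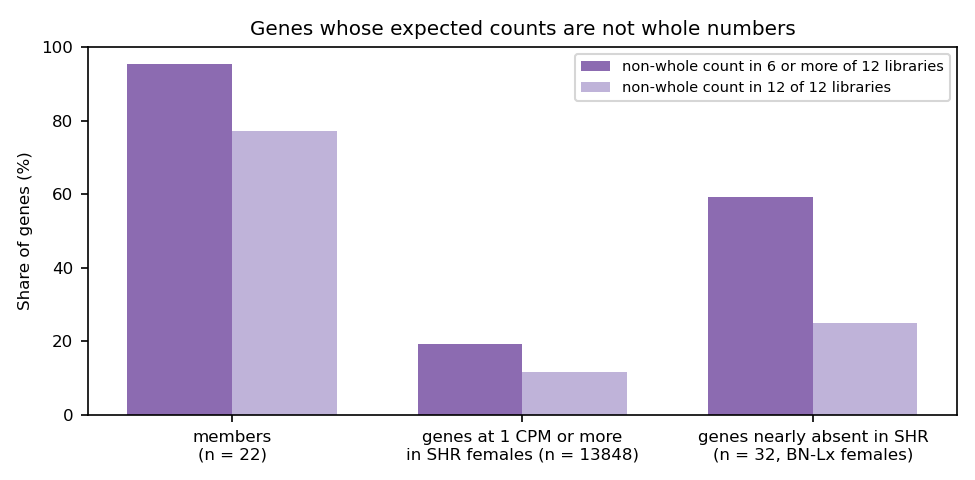
Share of genes (%) whose expected counts are not whole numbers in at least 6 (dark) or in all 12 (light) female libraries of the strain that expresses them. The bars stand at 95.5% and 77.3% for the 22 members, 19.3% and 11.6% for genes at a like minimum level, and 59.4% and 25.0% for the 32 genes nearly absent in SHR.

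The decimals of the counts show with which genes some members shared reads. Where a fragment is divided among a closed group of genes, their decimals add to a whole number in each library. A group was accepted if it closed in at least 90% of the libraries in which the member's count was not whole, within 0.01 counts for 1 other gene or 0.02 counts for 2. Such groups were found for 8 members, 5 with 1 other gene and 3 with 2, and they hold 11 other genes, none of them a member. Larger groups were not searched. For 13 members with divided counts no group was found. The search was added after the data had been seen.

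For 7 of these 8 members the level of the whole group lay within 1.5-fold between strains. The summed level of member and other genes was 0.746 to 1.18 times as high in SHR as in BN-Lx females, and 0.686 to 1.46 times as high in males. In the eighth, that of ENSRNOG00000019050, the sum stayed higher in SHR. When the sums replaced the single rows in the test of the males, 1 of the 8 sums was called, again that of ENSRNOG00000019050. In that fit 58 of the 18123 rows tested were called higher in SHR. As single rows, only ENSRNOG00000019050 and ENSRNOG00000003883 of the 8 had been called, so for the others the sums removed no call. These sums do not depend on how RSEM divided reads within a group. The member held 96.4% of the summed level in SHR females for ENSRNOG00000048109 and 83.7% for ENSRNOG00000019050. It held 19.8% for ENSRNOG00000059373, 15.2% for ENSRNOG00000007219 and 1.64% to 5.98% for the other 4, so in these the more abundant genes set the sum, and a ratio near 1 says little of the member itself.

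ENSRNOG00000048109, of 862 bases, and ENSRNOG00000011893, of 1100 bases, formed a pair whose more abundant gene differed between the strains. Their decimals closed in 24 of the 24 libraries with a divided count, and no other gene closed with the member in more than 4. In SHR females the member had 111, 161 and 209 CPM (lowest, median and highest) and ENSRNOG00000011893 had 4.48, 5.60 and 9.06 CPM. In BN-Lx females the order was turned, with a mean of 4.39 CPM for the member and 167 CPM for the other gene. Their sum was 168 ± 28.3 CPM in SHR females (SD, n = 12) and 0.982 times as high as in BN-Lx females. The sums in males were 178 and 212 CPM in SHR and 108 and 158 CPM in BN-Lx. The fitted log2 difference was 0.56 ± 0.35 (SE, edgeR adjusted p = 0.572). ENSRNOG00000011893 met the rule with the strains swapped, the only 1 of the 11 other genes to do so.

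ENSRNOG00000007219, of 2202 bases, closed in 16 of 17 libraries with ENSRNOG00000059714, of 2758 bases, and a further gene at 0.109 CPM in SHR females. The abundant gene had a mean of 676 CPM in SHR females, and the member 122 CPM. In BN-Lx the member was seen in 4 of 12 females, at 68.4 CPM in estrus replicate 2, 58.8 in post-estrus replicate 3, 34.5 in pre-estrus replicate 5 and 2.46 in post-estrus replicate 4. It had no count in the other 8 females or in either male. All 4 libraries carry suffix b37, and all 5 BN-Lx b35 females were at 0, while the SHR mean was 95.8 CPM in b35 and 158 CPM in b37 females. The part of the suffix in this was not tested. Summed, the group was 1.07 times as high in SHR as in BN-Lx females, and its log2 fold change in males was 0.58 ± 0.39 (SE, edgeR adjusted p = 0.596).

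ENSRNOG00000019050, of 2068 bases, closed in 14 of 14 libraries with ENSRNOG00000036603, of 2245 bases. The member had 2.68, 7.34 and 12.5 CPM in SHR females (lowest, median and highest). Its BN-Lx females had no count in 10 of 12 and at most 4.13 expected counts. The other gene had a mean of 1.40 CPM in SHR females and 0.784 times the BN-Lx level. The sum was 8.60 ± 3.04 CPM in SHR females (SD, n = 12), 4.78 times the BN-Lx level. In males it was 9.99 ± 1.41 CPM in SHR against 2.07 ± 0.81 CPM in BN-Lx (SD, n = 2 each), and the groups did not overlap. The fitted log2 difference was 2.36 ± 0.54 (SE, edgeR adjusted p = 0.0371).

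ENSRNOG00000059373 closed in 19 of 19 libraries with ENSRNOG00000014992. The member had a mean of 10.5 CPM in SHR females, where the other gene had 42.3 CPM, 0.602 times its BN-Lx level. The sum lay in the opposite direction to the member, at 0.746 times the BN-Lx level in females. In males its log2 fold change was -0.46 ± 0.13 (SE, edgeR adjusted p = 0.114).

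In the remaining 4 groups the member was a small part of a more abundant gene's total. ENSRNOG00000003883 closed in 18 of 18 libraries with ENSRNOG00000004402, at 3.00 and 113 CPM in SHR females. ENSRNOG00000048060 closed in 8 of 8 with ENSRNOG00000021609, at 1.06 and 16.6 CPM. ENSRNOG00000059957 closed in 24 of 24 with ENSRNOG00000007688, at 2.74 and 53.5 CPM, and with a further gene at 0.162 CPM. ENSRNOG00000031061 closed in 14 of 14 with ENSRNOG00000019007, at 1.47 and 88.4 CPM, and a further gene at 0.107 CPM. The abundant genes of these groups were at 0.985 to 1.15 times their BN-Lx level in females. The log2 fold changes of the 4 sums in males were 0.42 ± 0.22, -0.09 ± 0.23, 0.19 ± 0.21 and -0.10 ± 0.13 in this order (SE, edgeR adjusted p from 0.515 to 0.888).

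**Figure D4:**
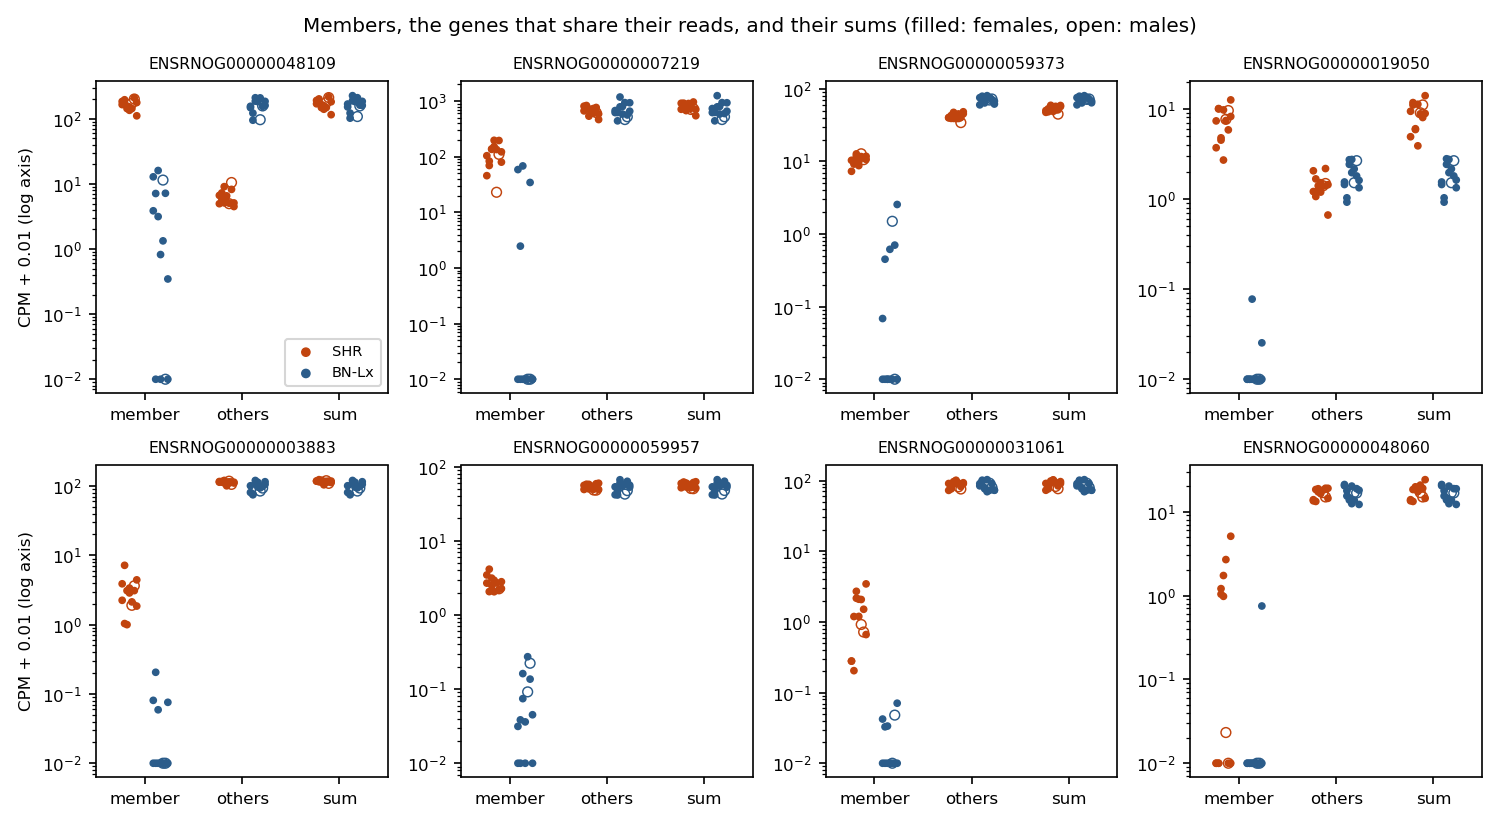
The 8 members whose reads closed with other genes, showing the member, the other genes of its group and their sum in each library (CPM plus 0.01, log axis; SHR orange, BN-Lx blue; filled symbols females, open symbols males). The member columns separate the strains in most panels, while the sums overlap except for ENSRNOG00000019050 and, in the opposite direction, ENSRNOG00000059373.

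The 13 members with divided counts and no group found include several of the most abundant. ENSRNOG00000032585, of 2095 bases, had 87.8, 118 and 173 CPM in SHR females and 1.21, 3.09 and 5.18 CPM in BN-Lx females (lowest, median and highest in each). ENSRNOG00000033803, of 366 bases, had 37.1, 53.7 and 60.5 CPM against 1.58, 3.68 and 6.03 CPM. Its best set of 2 other genes closed in 21 of 28 libraries, short of the limit. Both members had counts in every BN-Lx female, and their strains did not overlap. ENSRNOG00000031378, of 786 bases, had 5.96, 8.42 and 10.3 CPM in SHR females and no count in 9 of 12 BN-Lx females. Its best single partner closed in 12 of 18 libraries. ENSRNOG00000045924, of 959.2 bases and with 4 listed transcripts, had 4.14, 9.84 and 12.9 CPM in SHR females and at most 0.687 CPM in BN-Lx females. ENSRNOG00000031706, of 747 bases, had 2.48, 6.78 and 10.6 CPM against at most 0.117 CPM. The 12 females of each strain did not overlap for any of these 3 members either. ENSRNOG00000051310, of 343 bases, was lower, at 0.578, 1.97 and 3.53 CPM in SHR females and at most 0.0721 CPM in BN-Lx females. ENSRNOG00000052528, the shortest member, had 2.74, 5.14 and 6.58 CPM against 0.0466, 0.398 and 0.559 CPM, and it had counts in every BN-Lx female.

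Some members moved together among the SHR animals. Over the 14 SHR libraries, the ratio of ENSRNOG00000026716 to ENSRNOG00000048109 stayed between 1.03 and 1.25. That of ENSRNOG00000058301, of 321 bases, to ENSRNOG00000061125, of 280 bases, stayed between 2.19 and 2.83, although both varied about 5-fold (4.88-fold and 5.35-fold over the females). These pairs were picked as the steadiest of the 210 pairs of members with counts in every SHR library, of which the median pair varied 6.94-fold. ENSRNOG00000026716 and ENSRNOG00000048109 each varied little over the SHR females (1.86-fold and 1.88-fold), which by itself narrows their ratio. Pairs of other genes were not compared. The libraries share their depth and RNA composition across all members, so these ratios are a description. By library, ENSRNOG00000058301 had 8.55, 18.4 and 41.7 CPM in SHR females and ENSRNOG00000061125 had 3.40, 7.51 and 18.2 CPM (lowest, median and highest). For both the lowest was estrus replicate 9 and the highest pre-estrus replicate 10.

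The stage of the cycle was not used to choose the members. No member was called for any difference among the 3 stages in SHR females (edgeR quasi-likelihood test with 4 animals a stage), where 0% of all 18134 genes were called. At an unadjusted p under 0.05 there were 0 members and 116 genes, and DESeq2 and limma called 3 and 1 genes but no member. The members at an unadjusted p under 0.05 numbered 3 with DESeq2 and 4 with limma, against 181 and 112 of the 18134 genes. In an edgeR fit of the 12 SHR females alone they numbered 3, against 99 of 16814 genes. All these gene counts lie far below the share of 0.05 that well-calibrated p-values give where no gene differs. The stage tests were thus conservative, and the lack of calls says little of the members. In the edgeR fit of all 28 libraries, ENSRNOG00000003883 had the smallest unadjusted p of the members, 0.0918. Its levels were 3.12 ± 0.96 CPM at pre-estrus, 4.37 ± 1.89 at estrus and 1.52 ± 0.62 at post-estrus (SD, n = 4 each; edgeR adjusted p = 1). ENSRNOG00000045924 had 11.0 ± 2.29, 6.31 ± 1.86 and 10.4 ± 0.92 CPM in the same order (edgeR adjusted p = 1).

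Many members varied widely between SHR females. SHR females lay within 2-fold of each other for 8 members, and more than 3-fold apart, or with a 0, for 12. ENSRNOG00000054586 had 0.497, 1.96 and 32.8 CPM (lowest, median and highest SHR female), and the highest was post-estrus replicate 13, without which its mean was 3.75 in place of 6.17 CPM. ENSRNOG00000040273 had 0.0339, 7.16 and 10.2 CPM, and the lowest was the same animal. Its mean was 4.78 CPM in the 7 b35 and 8.46 CPM in the 5 b37 SHR females. ENSRNOG00000048060 was at 0 in 6 of 12 SHR females and reached 5.08 CPM, again in post-estrus replicate 13. This library was the highest SHR female for 3 members and the lowest for 5. Without it ENSRNOG00000048060 was no longer a member, and the same held without pre-estrus replicate 10 or 8.

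**Figure D5:**
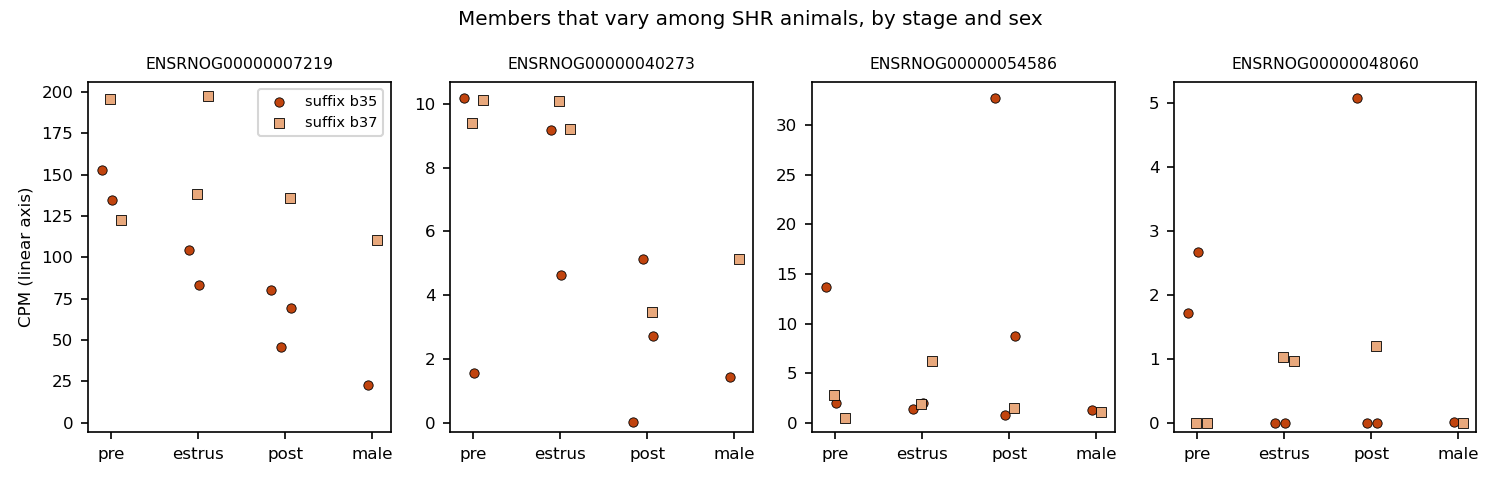
CPM (linear axis) of 4 members in each SHR library by stage and in males; circles carry suffix b35 and squares b37. ENSRNOG00000054586 and ENSRNOG00000048060 are highest in 1 post-estrus animal, at 32.8 and 5.08 CPM, in which ENSRNOG00000040273 is at 0.0339 CPM.

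SHR males were below SHR females in mean level for 15 of the 22 members, with a median male to female ratio of 0.822. The rule chose members for their level in females, so no test of this difference is given. ENSRNOG00000056398 had a ratio of 0.994, while ENSRNOG00000054586 and ENSRNOG00000048060 had 0.189 and 0.00627. The libraries with suffix b35 hold both BN-Lx males but only 1 SHR male, which is assumed to vary like the other groups. In a fit of these alone, 11 members were called higher in SHR males, against 0.161% of the 18602 genes tested there. Of them, 10 were called in the 28 libraries too, ENSRNOG00000031706 was not called (edgeR adjusted p = 0.132) and ENSRNOG00000007219 was (edgeR adjusted p = 0.000325).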

How the data were processed

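The submitters' processing notes name 2 tools, cutadapt and RSEM. Their versions, and which build and annotation were used, were not given in the sources used here. Values deposited are expected counts per gene (estimated counts, not normalized); the deposited per-sample files also give TPM, used to order genes, and lengths in bases. The deposited FPKM values were not used. CPM was computed over the counts of all genes, without the 92 spike-in rows. The members and lists were chosen with earlier results of these data known.

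For tests, expected counts were rounded. Genes were kept by filterByExpr (count minimum of 10), which left 18134. All 28 libraries entered a single edgeR 4.0.16 quasi-likelihood fit (robust, TMM) with 8 strain-by-sex/stage groups and the suffix b35 or b37, with 19 degrees of freedom left. Adjustment was over all genes tested (Benjamini-Hochberg), and standard errors are derived from the F statistic. DESeq2 1.42.0 and limma 3.58.1 were alternatives. That libraries are biological replicates is taken from the titles, and p-values measure the spread between libraries. The calculation was tested on simulated data. These had a single mean level per gene before changes were added, and no divided reads, so they are no check of members with such reads. Depth sets a floor of 3 counts per library, for counting error only.

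Without symbols, the rule for named genes took 2 identifiers each for the largest called change in males, the highest SHR male TPM, the highest members not called, the highest BN-Lx male level and the limits of the rule. The lists of gene classes and cell type markers need symbols and matched 0 rows, so they were not used.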

Additional observations from a re-analysis of the deposited data

Results flagged for a closer look

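Within each group of 4 females, 1 library was looked for whose distance from the nearest other library was too large a share of the group's range by Dixon's criterion for 4 samples and where the highest library had at least 3 counts. Of 132 groups (22 members in 6 groups), 22 were marked, 16 of them in BN-Lx and 11 with a value under 1 CPM. In 10 of the 22 the other 3 libraries were all at 0, so that any library with 3 counts would be marked. Chance marks about 1 in 20 groups of values that follow a normal distribution, a rate that does not apply to such counts.

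In BN-Lx, ENSRNOG00000026716 stood at 110 CPM in post-estrus replicate 5, against 5.99 to 15.4 CPM in the other 3 animals. ENSRNOG00000007219 stood at 68.4 CPM in estrus replicate 2, 58.8 CPM in post-estrus replicate 3 and 34.5 CPM in pre-estrus replicate 5, against at most 2.46 CPM in the others. In pre-estrus replicate 5, ENSRNOG00000048109 stood at 7.17 CPM, ENSRNOG00000056398 at 0.0587 CPM and ENSRNOG00000031378 at 0.0552 CPM. In pre-estrus replicate 7b, ENSRNOG00000048060 stood at 0.740 CPM, ENSRNOG00000003883 at 0.0657 CPM and ENSRNOG00000031061 at 0.0607 CPM. Estrus replicate 4 stood apart for ENSRNOG00000059373 at 0.606 CPM and ENSRNOG00000026592 at 0.104 CPM, and estrus replicate 2 for ENSRNOG00000019050 at 0.0673 CPM. Post-estrus replicate 4 stood apart for ENSRNOG00000059373 at 0.440 CPM and ENSRNOG00000003883 at 0.195 CPM, and post-estrus replicate 6 for ENSRNOG00000056398 at 0.163 CPM.

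In SHR, ENSRNOG00000040273 was low in estrus replicate 9 at 4.62 CPM and in pre-estrus replicate 8 at 1.55 CPM. ENSRNOG00000054586 was high in estrus replicate 6 at 6.24 CPM and in pre-estrus replicate 10 at 13.7 CPM. ENSRNOG00000052528 was high in estrus replicate 5 at 6.58 CPM, and ENSRNOG00000026592 was low in post-estrus replicate 13 at 1.22 CPM. No cause of these values was tested.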

How the results depend on the processing

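The number of members was 17 with a 16-fold limit, 28 with a 4-fold limit, 28 with short rows kept, 20 with TMM scaling, 31 in b35 and 20 in b37 females, and 21 to 24 when any female was left out. With the closed groups summed, an alternative chosen after seeing the data, 14 members were left. The males gave 145 called genes, but 319 with DESeq2, 55 in b35 libraries alone, 51 with the replicate number as a block and 61 to 74 without any one male. Members called in males numbered 11, and 7 with the replicate block, 16 with DESeq2 (3 others without an adjusted p) and 7 to 11 without any one male (7 without either BN-Lx male). The titles of the males of the 2 strains share no more than a replicate number. The deviations of same-numbered males correlated at -0.0331. With 2 males per strain this is a single value, and the SHR males also differ in suffix, so it cannot decide whether males are paired. For stage in SHR, limma called 1 gene and DESeq2 3, and no member was called in any setting, nor any gene when an SHR female was left out. The log2 fold change in males turned negative for the sums of ENSRNOG00000059373 (-0.46), ENSRNOG00000031061 (-0.099) and ENSRNOG00000048060 (-0.087), and for ENSRNOG00000048060 alone without SHR male replicate 2 (-1.23; without any one male, -1.23 to 3.32). The cause of these changes was not tested, apart from the sums, which by construction add the reads of other genes. BN-Lx levels under the floor of 3 counts per library are not resolved at this depth.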
